A study of Rattus norvegicus with 9 samples.

Results

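The natriuretic peptide genes and the genes of their receptors were followed in cardiac RNA-seq libraries of rats with heart failure (HF). Members were chosen by gene symbol from a set of 7 names (Nppa, Nppb, Nppc, Npr1, Npr2, Npr3 and Corin), and 4 of these were listed among the 5760 genes of the deposited tables. Nppa, Nppb, Npr1 and Npr3 were listed in the Cal/model table of 4288 genes, whereas only Nppb and Npr3 were listed in the model/sham table of 2458 genes. Nppc, Npr2 and Corin were listed in neither table and were not analysed here.

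Hearts of 9 male Sprague Dawley rats were sequenced, 3 per group. HF was induced by ligating the left anterior descending coronary artery in the model and Cal groups, and the sham group, which the labels call Control, had the operation without ligation. Oral treatment began a day after surgery and lasted 28 days, with calycosin (Cal), an isoflavonoid, at 80 mg/kg per day in the Cal group and distilled water in the others. The age of the rats is not given in the sources used here, the ligation leaves infarcted and spared muscle in the same heart, and the part of the heart taken for RNA is not given either.

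The heart releases a pair of peptide hormones when its walls are stretched. Nppa encodes the precursor of atrial natriuretic peptide (ANP), made mainly in the atria, and Nppb that of B-type natriuretic peptide (BNP), whose circulating fragments are measured clinically in HF. Both peptides activate the receptor encoded by Npr1, a guanylyl cyclase that makes cyclic GMP, which relaxes vessels and promotes salt excretion. Npr3 encodes the clearance receptor, which takes up the peptides and removes them from the circulation. Induction of Nppa and Nppb in the ventricle is a classic sign of load on cardiomyocytes, whereas Npr3 marks the endocardium, the endothelial lining of the heart chambers.

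The names of the groups in the tables conflict, and this bears on each direction given here. For 4288 of 4288 genes of the Cal/model table, averaging the 3 sample columns headed Model returns the deposited mean named Cal, and averaging the Cal-headed ones returns the mean named Model. The model/sham table has no sample column headed Model, and its mean named Model is the average of the columns headed Cal (2458 of 2458 genes). Libraries are therefore called Model-headed, Cal-headed or Con-headed by their own column. Under the naming of the means, the Model-headed libraries would be the Cal group and the Cal-headed ones the model group. Values are reads divided by a size factor of the library (normalized counts), computed separately in each table. Reads on the listed genes ranged from 2860826 to 3998471 per library in the Cal/model table. They ranged from 3270460 to 4659882 in the model/sham table, which lists other genes. Identifiers are mouse Ensembl genes although the animals were rats. Both tables list only genes with an adjusted p under 0.05 in the authors' own test of these libraries, so the tests on the members below describe a selected contrast and are not independent evidence of it. Among the defining genes of cardiomyocytes, Myh6 (α-myosin heavy chain) and Ryr2 (ryanodine receptor) were listed in the model/sham table, with summed normalized counts of 267192 to 362832 per library, while no cardiomyocyte marker out of 10 was listed in the Cal/model table.

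Nppb and Nppa are neighbours in the genome, and both were lower in the Cal-headed libraries than in the Model-headed ones. The deposited annotation, whose build is not named, places Nppb (ENSMUSG00000029019) on mouse chromosome 4 from 147985788 to 147987205 and Nppa (ENSMUSG00000041616) on the same strand from 148000722 to 148002079, with a gap of 13517 bases. In the rat assembly GRCr8 their RefSeq start sites are 12176 bases apart on chromosome 5. The proximal promoters of the pair (250 bases before the start site and 50 after it, from RefSeq) are shown because the transcripts of both genes moved in the same direction. They lie on the plus strand of GRCr8 at chr5:163711934-163712233 for Nppa and chr5:163699758-163700057 for Nppb, and capitals mark matches to the motifs described next.
Nppa promoter: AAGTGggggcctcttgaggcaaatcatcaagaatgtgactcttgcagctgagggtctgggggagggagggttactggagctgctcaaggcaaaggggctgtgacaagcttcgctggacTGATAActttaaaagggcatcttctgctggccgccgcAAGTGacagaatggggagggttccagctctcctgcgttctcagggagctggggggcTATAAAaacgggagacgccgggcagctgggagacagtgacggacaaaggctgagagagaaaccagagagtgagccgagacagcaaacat
Nppb promoter: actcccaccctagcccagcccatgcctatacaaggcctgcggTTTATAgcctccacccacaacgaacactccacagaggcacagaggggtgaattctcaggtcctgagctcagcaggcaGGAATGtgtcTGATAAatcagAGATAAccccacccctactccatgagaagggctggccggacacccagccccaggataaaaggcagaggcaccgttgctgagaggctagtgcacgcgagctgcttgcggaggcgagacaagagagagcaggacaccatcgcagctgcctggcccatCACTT

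Both windows held the GATA-type motif TGATAA, at positions -132 to -127 relative to the start in Nppa and -121 to -116 in Nppb. Of 33469 rat promoter windows of this length, 9.03% held TGATAA on either strand. Nppb also held AGATAA, present in 11.6% of promoters, and the M-CAT motif CATTCC on the minus strand at -131 to -126, present in 14.2%. AAGTG, a short form of the motif of the cardiac factor Nkx2-5, occurred at 2 places in Nppa and at 1 in Nppb, and 46.2% of promoters held it. TATAAA, found in 14.2% of promoters, had a match in each window, on the plus strand of Nppa at -39 to -34 and on the minus strand of Nppb at -208 to -203. Neither window had a match to TGANTCA (7.33% of promoters) or to the CArG box (1.64%). All motifs were searched on both strands, and none of them overlapped another in these windows. The receptor promoters had a single match among them, to AAGTG in Npr3. Such matches describe letters in the window and say nothing of binding.

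To compare the peptide genes between the Cal and model groups, their levels were read in each library. Nppa had normalized counts of 988, 1429 and 2363 in the Model-headed libraries (replicates 1 to 3) and 622, 695 and 896 in the Cal-headed ones. All 3 Model-headed libraries lay above all 3 headed Cal, and the spread was wider in the Model-headed ones, with a coefficient of variation of 44.0% against 19.3%. The mean was 1593 ± 702 (SD, n = 3) against 737 ± 142 (SD, n = 3). On the log2 scale Nppa stood at -1.04 in Cal-headed relative to Model-headed libraries (standard error 0.31, 95% interval -1.76 to -0.31, adjusted p = 0.0135 from limma). This fold change depended on the scaling, since under median-ratio scaling over the listed genes it was -0.74 (adjusted p = 0.0591) and under quantile normalization -0.60 (adjusted p = 0.0824). Without the third Model-headed library it was -0.70.

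Nppb had 2848, 2843 and 4587 in the Model-headed libraries (replicates 1 to 3) and 1402, 1884 and 1916 in the Cal-headed ones. The third Model-headed library was the highest for Nppb, as it was for Nppa, and the groups did not overlap. Means were 3426 ± 1006 and 1734 ± 288 (SD, n = 3 per group). Nppb was thus lower in the Cal-headed libraries, at -0.96 on the log2 scale (standard error 0.23, 95% interval -1.49 to -0.42, adjusted p = 0.006 from limma). Quantile normalization reduced the difference to -0.43 (adjusted p = 0.147). By the mean columns' names the higher peptide transcripts would belong to the Cal group.

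The receptor genes lay the other way. Npr1 (ENSMUSG00000027931), on mouse chromosome 3 from 90450591 to 90465866, had normalized counts of 138, 248 and 256 in the Model-headed libraries (replicates 1 to 3) and 398, 296 and 392 in the Cal-headed ones. Every Cal-headed library was above every Model-headed library. The means were 214 ± 65.7 and 362 ± 57.6 (SD, n = 3 per group), a log2 fold change of 0.80 (standard error 0.27, 95% interval 0.17 to 1.43, adjusted p = 0.0207 from limma). Npr1 did not pass an adjusted p of 0.05 without the first Cal-headed library (0.72, adjusted p = 0.0676) or without the third (0.73, adjusted p = 0.0631), and its log2 fold change was 0.51 without the first Model-headed library.

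Npr3 (ENSMUSG00000022206), on mouse chromosome 15 from 11839896 to 11907287, showed the widest difference of the 4 members. Its normalized counts were 141, 218 and 124 in the Model-headed libraries (replicates 1 to 3) and 478, 385 and 486 in the Cal-headed ones. The lowest Cal-headed library was well above the highest headed Model. The means were 161 ± 50.3 and 450 ± 56.2 (SD, n = 3 per group), and the log2 fold change was 1.51 (standard error 0.24, 95% interval 0.95 to 2.07, adjusted p = 0.00127 from limma), a 2.85-fold difference. Over all alternatives it stayed between 1.34 and 1.81. By the mean columns' names the lower receptor transcripts would belong to the Cal group.

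**Figure D1:**
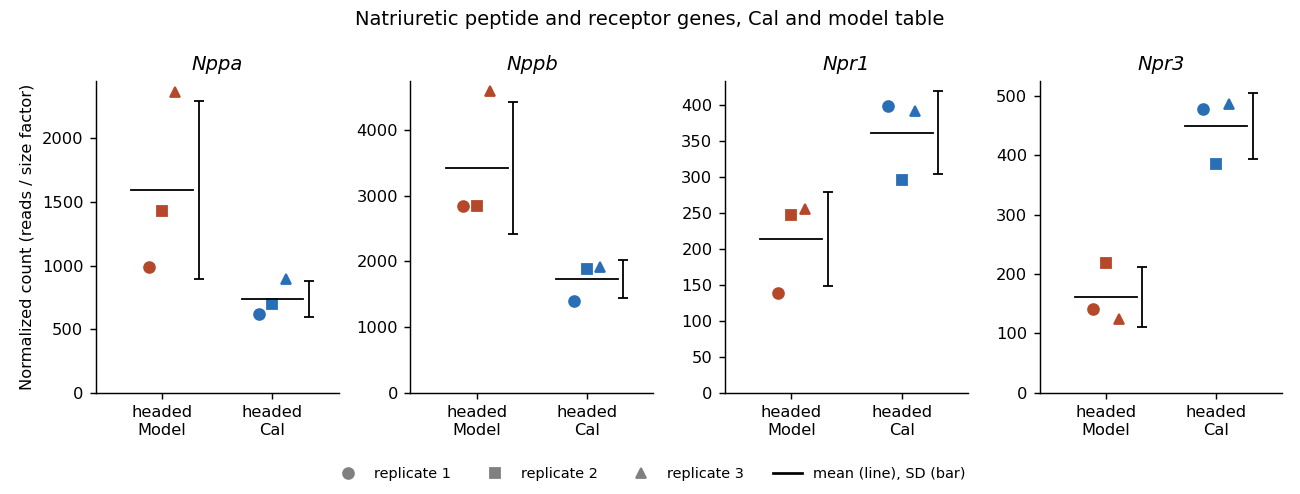
Normalized counts of Nppa, Nppb, Npr1 and Npr3 (vertical axes, each starting at 0) in the 3 Model-headed libraries and the 3 headed Cal, with the replicate number as the marker shape, the mean as a line and the SD as a bar. The peptide genes were higher in the Model-headed libraries (means of 1593 for Nppa and 3426 for Nppb) and the receptor genes in the Cal-headed ones (means of 362 for Npr1 and 450 for Npr3), with no overlap between groups.

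Of the 4 members, 2 (Nppa and Npr3) met the call rule, a log2 fold change above 1 or below -1 together with an adjusted p under 0.05, which 60.1% of all listed genes met (28.4% higher and 31.6% lower in the Cal-headed libraries). All 4 passed the adjusted p alone, as did 99.6% of the listed genes (46% higher and 53.7% lower), and all 4 had groups that did not overlap, as had 98.2%. The share of listed genes whose groups did not overlap was 45.7% with the Cal-headed libraries higher and 52.5% with them lower. The median log2 fold change of all listed genes was -0.52. Both peptide genes lay below it and both receptor genes above it. Quantile normalization moved that median by 0.42 and median-ratio scaling by 0.30, and neither changed the direction of any member. Npr3 ranked 674th of 4288 genes from the highest log2 fold change, so 15.7% of genes were at its value or above. Nppa ranked 1331st from the lowest.

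**Figure D2:**
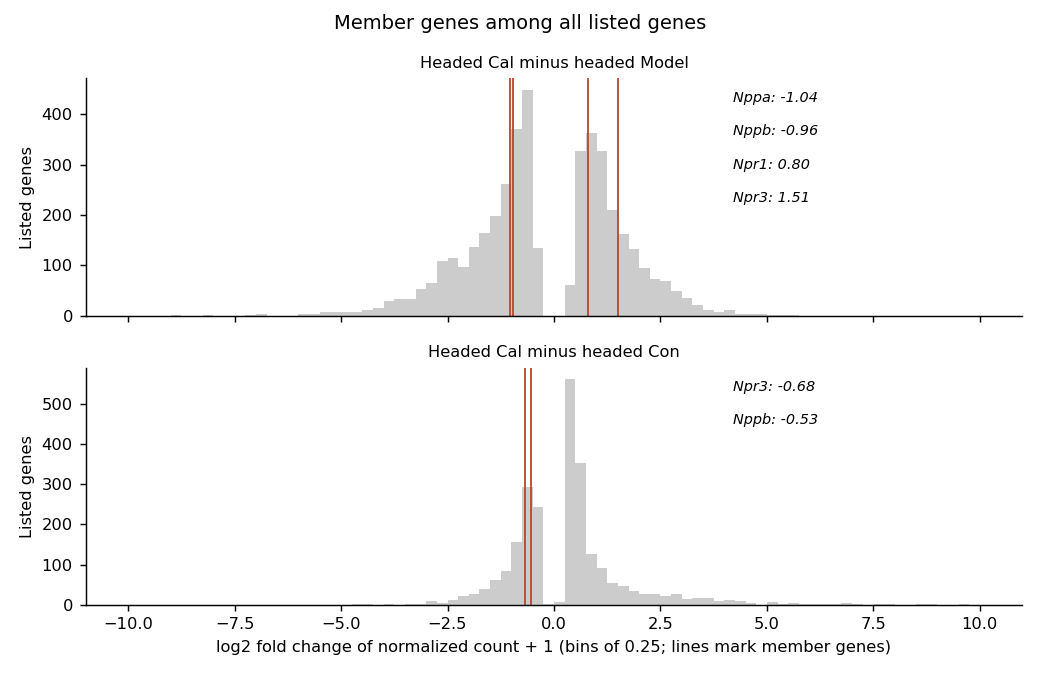
Number of listed genes (vertical axes) by log2 fold change of the normalized count + 1 (horizontal axis) for the Cal-headed libraries against the Model-headed ones (4288 genes) and against the Con-headed ones (2458 genes), with vertical lines at the member genes. Few genes lie near 0, since the tables list genes that passed the authors' test. The members lie within the bulk of both wings in the upper panel, from -1.04 to 1.51, and of the negative wing in the lower one, at -0.68 and -0.53.

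The members were next compared per kilobase of the deposited gene length, since their lengths range from 781 bases for Nppb to 9389 for Npr3. These lengths come with mouse gene identifiers although the reads came from rats, and the effect of this on the order between genes was not tested. In the Cal-headed libraries the mean level per kilobase was 2220 for Nppb, 853 for Nppa, 75.7 for Npr1 and 47.9 for Npr3. In the Model-headed ones it was 4387, 1842, 44.7 and 17.2 in the same order. The order of levels was therefore Nppb, Nppa, Npr1 and Npr3 in both groups, it held in each of the 6 libraries, and within a group no member overlapped its neighbour in that order. Averaged over the 6 libraries, Nppb ranked 46th of the 4288 listed genes per kilobase and Nppa 123rd, whereas Npr1 ranked 2134th and Npr3 2745th.

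Because a ratio of 2 genes within a library does not depend on its size factor, 7 ratios between members were compared, 6 of them in the Cal/model table. With 3 libraries against 3, a two-sided exact permutation test cannot give a p under 0.1, and after adjustment over the 7 ratios the smallest value was 0.14. Ratios are of normalized counts, not per length, and the log2 differences and their tests used counts with 1 added. The ratio of the peptide genes overlapped between the groups. Nppa over Nppb was 0.347, 0.503 and 0.515 in the Model-headed libraries and 0.443, 0.369 and 0.468 in the Cal-headed ones. The ranges overlapped, the log2 difference of Cal minus Model was -0.08 (two-sided exact permutation test, p = 0.6, adjusted p = 0.7), and it lay between -0.26 and 0.02 with each library left out, turning sign without the second Model-headed library, without the third, or without the second Cal-headed one.

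The 4 peptide over receptor ratios had to separate the libraries, since each of these genes already did so and the peptides and receptors lay in opposite directions. Their sizes are therefore a description, and their p adds nothing to the values of the single genes. Nppb over Npr3 was 20.1, 13.0 and 37.1 in the Model-headed libraries and 2.93, 4.89 and 3.94 in the Cal-headed ones, a log2 difference of -2.47 (exact permutation p = 0.1, the smallest possible). Nppb over Npr1 ranged from 11.5 to 20.6 in the Model-headed libraries and from 3.52 to 6.37 in the Cal-headed ones, a log2 difference of -1.75 with the same p in the exact test. Nppa over Npr1 ranged from 5.77 to 9.23 and from 1.56 to 2.35, and Nppa over Npr3 from 6.55 to 19.1 and from 1.30 to 1.84. The log2 differences were -1.83 and -2.55, again with an exact permutation p of 0.1. These 4 differences kept their sign and lay between -2.82 and -1.53 with each library left out. The size factors of the libraries enter them only through the 1 added to each normalized count. The ratio of the signalling to the clearance receptor, Npr1 over Npr3, was 0.977, 1.13 and 2.07 in the Model-headed libraries and 0.834, 0.768 and 0.807 in the Cal-headed ones. The groups did not overlap (log2 difference -0.71, exact permutation p = 0.1), and without the third Model-headed library the difference was -0.39.

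**Figure D3:**
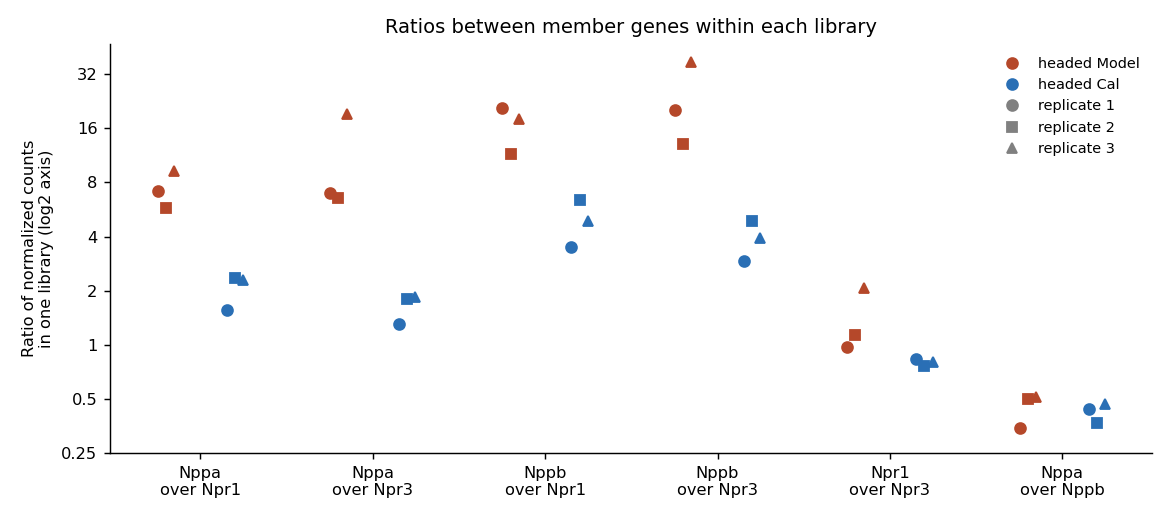
Ratios between members within each library (vertical axis, log2 scale) for the 3 Model-headed libraries and the 3 headed Cal of the Cal/model table, with the replicate number as the marker shape. The 4 peptide over receptor ratios were 5.77 or more in every Model-headed library and 6.37 or less in every Cal-headed library, with separate ranges for each ratio, whereas Nppa over Nppb overlapped between 0.369 and 0.468.

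For Nppb and Npr3 the model/sham table gives the comparison with rats without ligation, through the Cal-headed libraries, which are the same libraries in both tables (identical reads in 986 of 986 shared genes). Nppb had 2231, 2729 and 3513 in the Con-headed libraries (replicates 1 to 3) and 1568, 2112 and 2136 in the Cal-headed ones. The Con-headed libraries were all above the Cal-headed ones. The means were 2824 ± 647 and 1939 ± 321 (SD, n = 3 per group), giving Nppb a log2 fold change of -0.53 (standard error 0.18, 95% interval -0.94 to -0.12, adjusted p = 0.0181 from limma). It missed an adjusted p of 0.05 without the first Cal-headed library (-0.39, adjusted p = 0.0607) or without the third Con-headed one (-0.36, adjusted p = 0.0676), and under quantile normalization it was -0.99.

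Npr3 had 949, 674 and 798 in the Con-headed libraries (replicates 1 to 3) and 534, 431 and 542 in the Cal-headed ones. Every Con-headed library was above every Cal-headed library. The means were 807 ± 138 and 503 ± 61.7 (SD, n = 3 per group), a log2 fold change of -0.68 (standard error 0.15, 95% interval -1.02 to -0.33, adjusted p = 0.00409 from limma). The mean columns call this comparison model over Con. Neither member met the call rule here, which 29% of the listed genes met (18% higher and 10.9% lower). Both passed the adjusted p alone, as did 99.8% of the genes (60.6% higher and 39.2% lower). Both had groups that did not overlap, as had 97.4% (58.8% higher and 38.5% lower). The median log2 fold change of all listed genes was 0.37 in this table and moved by -0.42 under quantile normalization. In this table Nppb over Npr3 was 2.35, 4.05 and 4.41 in the Con-headed libraries against 2.93, 4.89 and 3.94 in the Cal-headed ones. These ratios overlapped (log2 difference 0.14, exact permutation p = 0.7, adjusted p = 0.7), and the difference turned to -0.14 without the first Con-headed library and to -0.03 without the second Cal-headed one.

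Levels in the 3 groups were set side by side by multiplying the Con-headed libraries by 0.894, the mean factor between the tables in the shared libraries, and were not tested across tables. For Npr3 the order from the highest was Con-headed, Cal-headed and Model-headed, with no overlap between neighbours. The Con-headed libraries had 721 ± 123 (SD, n = 3), the Cal-headed ones were at 0.623 of that mean and the Model-headed ones at 0.223 of it. For Nppb the order was Model-headed, Con-headed and Cal-headed. The Con-headed libraries had 2526 ± 578 (SD, n = 3), and their range of 1995 to 3142 overlapped that of the Model-headed libraries, 2843 to 4587, while the Cal-headed libraries reached 1916 at most. Both comparisons share the Cal-headed libraries, so the values of those libraries enter each of them. Under the names of the mean columns, the order for Npr3 would be sham, model and Cal, and Nppb would be lowest in the model group.

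**Figure D4:**
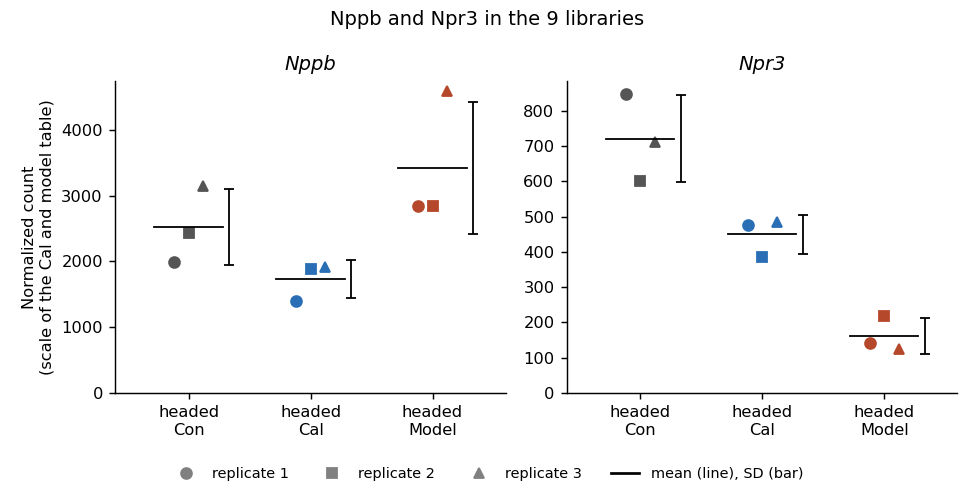
Normalized counts of Nppb and Npr3 (vertical axes, starting at 0, on the scale of the Cal/model table) in the 9 libraries by heading, with means as lines and SDs as bars, after the Con-headed libraries were multiplied by 0.894. Npr3 steps down from 721 in the Con-headed libraries through 450 in the Cal-headed to 161 in the Model-headed ones. Nppb is lowest in the Cal-headed libraries, at 1734, with overlapping ranges in the Con-headed and Model-headed ones. The mean columns name the Cal-headed libraries model and the Model-headed ones Cal.

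Since Npr3 and Npr1 are expressed in endothelial cells, markers of these cells were read beside them. In the Cal/model table, 7 of 8 endothelial markers were listed. All 7 rose in the Cal-headed libraries at an adjusted p under 0.05 from limma, as did 46% of all listed genes. Their summed normalized counts were 16327 to 16702 in the Cal-headed libraries and 5666 to 7947 in the Model-headed ones. Of 8 endocardial markers, 6 were listed and all 6 were higher in the Cal-headed libraries, Npr3 among them. Without Npr3 these summed to 2715 to 3904 in the Cal-headed libraries and 935 to 2042 in the Model-headed ones. Npr3 amounted to 2.72% ± 0.357 of the endothelial sum in the Cal-headed libraries and 2.47% ± 1.2 in the Model-headed ones (SD, n = 3 per group), with overlapping ranges. Npr1 amounted to 2.19% ± 0.358 and 3.26% ± 1.36 (SD, n = 3 per group), also with overlapping ranges of 1.77% to 2.4% and 1.74% to 4.37%. As a share of the listed endothelial markers, the ranges of both receptors overlapped, with a wide spread in the Model-headed libraries. No other cell type was used as the denominator, and the part of endothelial cells in the receptor differences was not tested.

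In the model/sham table, 6 of 8 endothelial markers were listed. Of these, 5 fell in the Cal-headed libraries and Cldn5, a tight junction gene, rose, against 39.2% lower and 60.6% higher among all listed genes. Their sums were 13607 to 15132 in the Cal-headed libraries and 19963 to 22978 in the Con-headed ones. This sum holds Cdh5 and lacks Fabp4 and Tie1, so percentages of it are not on the scale of those above. Npr3 amounted to 3.44% ± 0.241 of the sum in the Cal-headed libraries and 3.85% ± 0.910 in the Con-headed ones (SD, n = 3 per group), with overlapping ranges. These percentages were chosen after seeing the data, and the markers had themselves been selected by the authors' test. In bulk tissue, fewer cells of a type and less RNA per cell cannot be told apart. For the peptides, Nppa was the only one of 8 atrial markers listed in the Cal/model table, so the share of atrial tissue was not tested.

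Of all genes listed in the Cal/model table, 46% were higher in the Cal-headed libraries and 53.7% lower by the adjusted p. There, 3 of 5 smooth muscle markers were listed and rose, with sums of 4766 to 5247 against 2624 to 3252. Of 8 fibroblast markers 4 were listed, 3 higher and 1 lower, with sums of 17378 to 21126 against 15696 to 22941. Of 9 leukocyte markers 6 were listed, with Csf1r, Lyz2 and Cd68 of the macrophage lineage higher and S100a8, S100a9 and Itgam, which neutrophils express strongly, lower. Summed leukocyte markers were 4929 to 5297 in the Cal-headed libraries and 2319 to 3297 in the Model-headed ones. The conduction system list had 2 of 6 genes listed, 1 in each direction, and the adipocyte list 1 of 5, which was higher. In the model/sham table the listed fibroblast markers (4 of 8, sums of 9550 to 12371 against 14389 to 16008) and smooth muscle markers (2 of 5, sums of 3580 to 3835 against 4409 to 4844) were all lower in the Cal-headed libraries. Of all genes listed there, 39.2% were lower and 60.6% higher by the adjusted p. Both leukocyte markers and the 1 conduction system marker listed were higher, and no atrial or adipocyte marker was listed. The cardiomyocyte markers Myh6 (0.29) and Ryr2 (0.31) were also higher, with sums of 360759 to 362832 against 267192 to 338084 in the Con-headed libraries. Of the 4 endocardial markers listed there, Npr3, Cdh11 and Cytl1 were lower and Nfatc1 was higher, and without Npr3 they summed to 1133 to 1420 in the Cal-headed libraries and 985 to 1357 in the Con-headed ones, which overlapped. The part of these cell types in the values of the members was not tested.

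Downstream of the receptors, cyclic GMP is also made by soluble guanylyl cyclase in response to nitric oxide, broken down by phosphodiesterases and read by its target proteins. Of 28 symbols of cyclic GMP signalling and peptide processing, 12 were listed in the Cal/model table, and their median log2 fold change was 1.15 against -0.52 for all listed genes. By the adjusted p, 9 were higher in the Cal-headed libraries and 3 lower, against 46% and 53.7% of all listed genes. Quantile normalization or median-ratio scaling changed the direction of none of the 12, although only 2 of the lower genes then passed. Nos3, endothelial nitric oxide synthase, had 597 ± 13.4 in the Cal-headed libraries and 153 ± 47.6 in the Model-headed ones (SD, n = 3 per group), a log2 fold change of 2.01 (adjusted p = 0.000391 from limma). Rgs2, a regulator of G protein signalling that cyclic GMP-dependent kinase acts on, had 636 ± 35.2 and 180 ± 89.5 (SD, n = 3 per group), a log2 fold change of 1.93 (adjusted p = 0.00149 from limma). Pcsk6, a protease that activates the ANP-processing enzyme corin, had a log2 fold change of 1.68 and the soluble cyclase subunit gene Gucy1b1 one of 1.12. Gucy1a2, a further subunit gene, had the largest log2 fold change of this list, 3.10, at low levels of 44.1 ± 5.02 and 5.2 ± 3.74 (SD, n = 3 per group). The phosphodiesterase genes differed among themselves. Pde5a (1.80), Pde3a (0.85) and Pde3b (0.85) had positive log2 fold changes, whereas Pde1b (-1.12) and Pde1a had negative ones. Pde1a had 88.2 ± 25.5 in the Cal-headed libraries against 301 ± 85.0 in the Model-headed ones (SD, n = 3 per group), a log2 fold change of -1.77 (adjusted p = 0.00173 from limma).

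In the model/sham table, 9 of these 28 symbols were listed. Of these 9, 4 were higher and 5 lower in the Cal-headed libraries, against 60.6% and 39.2% of all listed genes. Their median was -0.53 against 0.37 for all listed genes. Under quantile normalization 1 higher and 5 lower passed, and under median-ratio scaling 2 higher and 5 lower. Gucy1a1, another subunit gene of soluble guanylyl cyclase, was the only gene past the fold change limit, with 253 ± 51.2 against 557 ± 78.1 in the Con-headed libraries (SD, n = 3 per group) and a log2 fold change of -1.15 (adjusted p = 0.000883 from limma). Gucy1b1 (-0.73) and Pde5a (-0.75) were lower as well. Furin, which cleaves the BNP precursor, was higher, with a log2 fold change of 0.65. Ide, a peptide-degrading enzyme, was higher at 0.40 but changed sign under quantile normalization, and its groups overlapped.

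Genes tied to cardiac load or the fetal heart were read from a list of 21 symbols. The list holds old and new names of some genes and sets no direction for any of them. In the Cal/model table, 7 were listed, all 7 were lower in the Cal-headed libraries, and their median log2 fold change was -1.39 against -0.52 for all listed genes, of which 53.7% were lower by the adjusted p. However, Fhl1 changed sign under quantile normalization and only 5 of the 7 passed under either other scaling. Rcan1, a calcineurin inhibitor induced by calcineurin signalling, had 2334 ± 646 in the Cal-headed libraries and 17433 ± 4454 in the Model-headed ones (SD, n = 3 per group), a log2 fold change of -2.90 (adjusted p = 0.00021 from limma). Ankrd2, a stretch-responsive ankyrin repeat gene of striated muscle, had 4.78 ± 1.71 and 227 ± 122 (SD, n = 3 per group), with at most 5.98 in any Cal-headed library, and a log2 fold change of -5.22 (adjusted p = 0.000178 from limma). Its relative Ankrd1 was at 7465 to 9964 in the Cal-headed libraries and 23501 to 44368 in the Model-headed ones. Neither Myh7, Acta1 nor Actc1 was listed in either table. In the model/sham table, 6 of the 21 were listed and all 6 were higher in the Cal-headed libraries by the adjusted p, as were 60.6% of all listed genes, none past the fold change limit, with a median of 0.42 against 0.37 for all listed genes. Myh6 (0.29) and Atp2a2 (0.26) were among them, and the list sets no direction under load, so the count does not measure load. Under either other scaling only 2 of the 6 passed. Csrp3 under quantile normalization and Atp2a2 under median-ratio scaling changed sign there. Rcan1 and Nppb thus had opposite directions in that table, with log2 fold changes of 0.69 and -0.53, and the same direction in the Cal/model table.

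Of 28 transcription factors and cofactors tied to natriuretic peptide genes, 14 were listed in the Cal/model table, with a median log2 fold change of 1.17. By the adjusted p, 11 were higher and 3 lower in the Cal-headed libraries, against 46% and 53.7% of all listed genes, whose median was -0.52. The scalings changed no direction, although only 1 of the lower genes then passed. The list does not separate genes by their effect on the peptide genes, and Hdac9 (1.34) and Hdac5 (0.69) were among the higher ones. Gata4, whose family binds GATA motifs, had 1770 ± 121 in the Cal-headed libraries and 792 ± 156 in the Model-headed ones, and Nkx2-5 had 962 ± 45.4 and 345 ± 113 (SD, n = 3 per group). Their log2 fold changes were 1.17 and 1.52 (adjusted p = 0.000957 and 0.000971 from limma). Nfatc2 and Nfatc1, genes of calcineurin-responsive factors, had the largest, at 2.45 and 1.91, and Nfatc1 is also a marker of the endocardium. Hand2, a factor of heart development, had 593 ± 70.7 against 1419 ± 386 (SD, n = 3 per group), a log2 fold change of -1.23 (adjusted p = 0.0016 from limma), which was -0.84 under quantile normalization and -0.93 under median-ratio scaling. In the model/sham table, 7 were listed, 5 higher and 2 lower, against 60.6% and 39.2% of all listed genes. Their median was 0.57 against 0.37 for all listed genes, and 3 of the higher ones passed under quantile normalization. Klf4, a stress-responsive factor of vascular and immune cells, was the only gene past the fold change limit, with 247 ± 43.4 in the Cal-headed libraries and 982 ± 88.2 in the Con-headed ones (SD, n = 3 per group), a log2 fold change of -2.0 (adjusted p = 1.37e-05 from limma).

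Other hormone systems of the failing heart were represented by 32 symbols, of which 14 were listed in the Cal/model table. By the adjusted p, 10 were higher and 4 lower in the Cal-headed libraries, against 46% and 53.7% of all listed genes. The median log2 fold change was 0.66 against -0.52 for all listed genes, and 3 of the lower ones passed under median-ratio scaling. Edn1, the gene of endothelin 1, a vasoconstrictor, had 47.3 ± 1.87 against 290 ± 69.1 in the Model-headed libraries (SD, n = 3 per group), a log2 fold change of -2.56 (adjusted p = 0.000179 from limma). Adm, which encodes the vasodilator adrenomedullin, was lower at -1.45, while Ramp3 and Ramp2, genes of subunits of its receptors, were higher at 2.99 and 0.72. Avpr1a, a vasopressin receptor gene, was lower at -3.56, and Nr3c2, the mineralocorticoid receptor gene, was higher at 2.06. In the model/sham table, 8 were listed, 3 higher and 5 lower, against 60.6% and 39.2% of all listed genes. Their median was -0.53 against 0.37 for all listed genes. The 5 lower calls by the adjusted p were also counted under both other scalings, but the higher ones numbered 2 under quantile normalization and 0 under median-ratio scaling in limma. Aplnr, the apelin receptor gene, expressed in endothelial cells, had 187 ± 29.6 in the Cal-headed libraries and 1376 ± 105 in the Con-headed ones (SD, n = 3 per group), a log2 fold change of -2.88 (adjusted p = 1.37e-06 from limma).

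**Figure D5:**
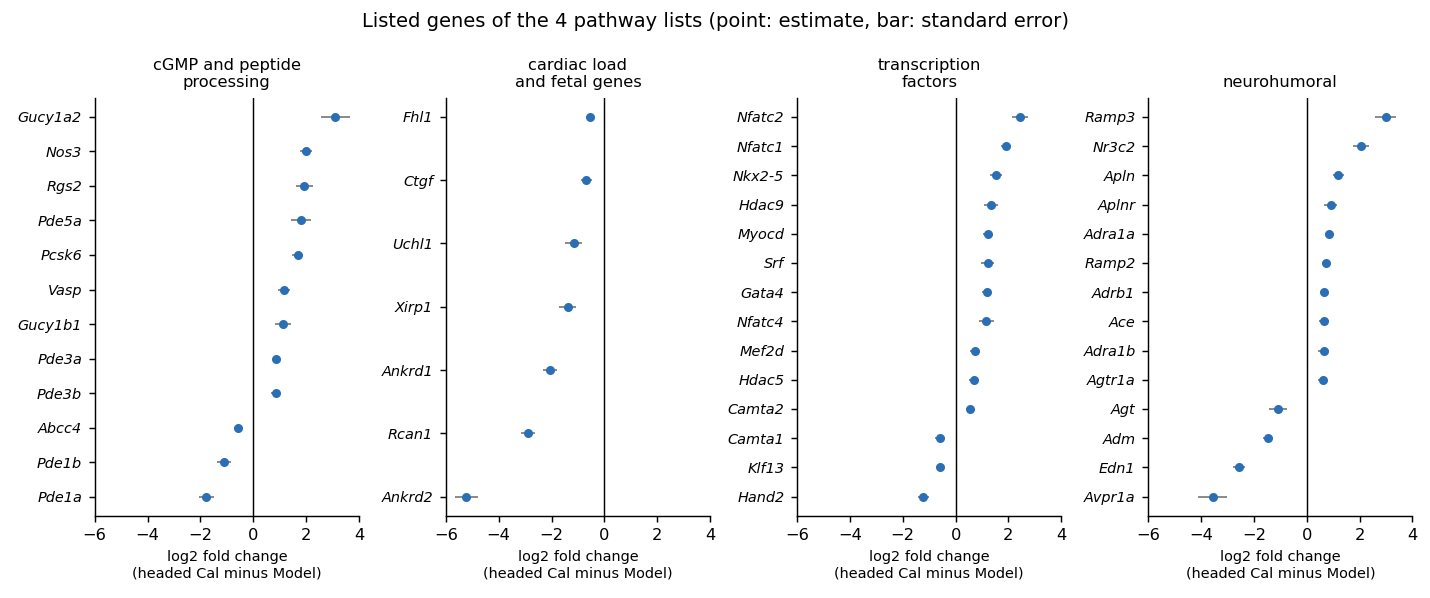
Log2 fold changes of the Cal-headed libraries over the Model-headed ones (horizontal axes) for the listed genes of the 4 pathway lists, with points as estimates from limma and bars as standard errors. All 7 load genes lie below 0, from -5.22 for Ankrd2 to -0.54 for Fhl1, whereas 9 of 12 cyclic GMP genes and 11 of 14 transcription factors lie above 0.

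The genes most like each member in pattern were found by Pearson correlation of log2 normalized counts among listed genes with a mean of at least 100, as a description, since all of these genes were selected for differing between the same libraries. Over 9 libraries the genes most like Npr3 were Abca8a, Ecm2, Zfp521, Myh11 and Rnase4, with r from 0.979 to 0.981 among 829 genes compared. Myh11 encodes smooth muscle myosin heavy chain and Ecm2 an extracellular matrix protein. Those most like Nppb were Id2, Tspyl2, Ndst2, Bmp4 and Atoh8, with r of 0.849 to 0.870, and Npr3 itself had r = -0.582 with Nppb. Over the 6 libraries of the Cal/model table, those most like Nppa were Smim3, Igsf8, Tspo, Tmco4 and Gatad2a (r of 0.981 to 0.989 among 3015 genes), and Nppb ranked 39th with r = 0.950. Those most like Npr1 were Islr, Fndc1, Rab3d, Mpped2 and Pde4a (r of 0.971 to 0.982), and Npr3 ranked 426th with r = 0.814.

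Other genes listed in the Cal/model table within 250 kb of the peptide pair were Mad2l2, Fv1 and Plod1. Their log2 fold changes were -1.06, 1.17 and 0.69, so the listed neighbours of Nppa and Nppb went in both directions. Npr1 had 7 listed neighbours, of which S100a6 and S100a16 were higher in the Cal-headed libraries and Slc39a1, S100a9, S100a8, S100a1 and Ilf2 lower, and Npr3 had 1, Sub1, which was lower at -0.89. None of these neighbours overlapped a member. No gene within 250 kb of Nppb or Npr3 was listed in the model/sham table.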

How the data were processed

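Heart RNA of 9 rats, 3 per group, was sequenced as paired-end reads. In the Methods, reads were aligned to rat sequences and counted per gene, and DESeq2 was used. The labels list Bowtie 0.12.2 and the mouse builds mm8 and mm9 without a role. The counting tool and its use of strand are not given in the sources used here. The deposited signal is a read count over the size factor of its library (0.820 to 1.17), and dividing by the value of a single read gave whole reads for 100% of values (tolerance 0.01 reads). The authors also deposited group means, gene lengths in bases and, for each gene, a log2 fold change, a p-value and an adjusted p-value. Those statistics were not used, except that their highest adjusted p-value, 0.04996, shows how the listed genes were selected. Depth over unlisted genes is unknown.

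In each table limma 3.58.1 (R 4.3.3, trended prior) was fitted to log2(normalized count + 1) with Benjamini-Hochberg adjustment across every listed gene. Fold changes on this scale understate those of low genes. Ratios of members were tested by exact permutation (scipy 1.17.1). Members and gene lists were chosen with earlier results of these data known. Genes named by rule were, per list and direction, the 2 called genes that changed most and averaged at least 100 in their higher group. Other list genes were named after their values were seen. Libraries were different rats by the Methods, and none duplicated another (chi-square per degree of freedom 10.9 to 80.7). The limma step was tested on simulated data. It recovered 100% of 200 genes given a log2 change of 2 in the Cal/model simulation (4091 genes, 0 false calls) and in the model/sham simulation (2426 genes, 2 false calls). The simulation gave every gene the same extra variation between libraries, changed few genes and used a change larger than that of any member. Its recovery therefore says nothing of sensitivity for the members. Promoters were taken from RefSeq (GRCr8), where 4 of 4 members matched by symbol. The alternatives comprised other pseudocounts (0.1, 10), a minimum mean of 10, quantile and median-ratio scaling, edgeR 4.0.16, DESeq2 1.42.0, a replicate block and the omission of each library.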

Additional observations from a re-analysis of the deposited data

How the results depend on the processing

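The direction of all 6 member comparisons held under every alternative, and pseudocounts, the filter, edgeR, DESeq2 and the replicate block left each on the same side of an adjusted p of 0.05. The scalings did not, with Nppa against the Model-headed libraries at -0.60 (quantile) and -0.74 (median-ratio), and Nppb at -0.43 (quantile), none past the threshold. Leaving out each library gave ranges of -1.33 to -0.70 for Nppa, -1.07 to -0.73 for Nppb, 0.51 to 0.95 for Npr1 and 1.34 to 1.75 for Npr3 against the Model-headed libraries, and -0.69 to -0.36 for Nppb and -0.80 to -0.55 for Npr3 against the Con-headed ones. The log2 ratio of Nppa over Nppb changed sign in 3 of its 6 fits without a library (range -0.26 to 0.02), and that of Nppb over Npr3 against the Con-headed libraries in 2 of 6 (range -0.14 to 0.34). Without the fold change limit 4272 genes rather than 2575 passed in the Cal/model table and 2454 rather than 712 in the other. Among calls of the Cal/model table, 47.3% were higher in the Cal-headed libraries, and 61.1% under median-ratio scaling. In the other table the share was 62.2%, against 43.3% (median-ratio) and 47.3% (quantile). Deviations of same-numbered libraries from their group means did not move together (correlations -0.14 to 0.11), so the replicate numbers were not taken as a pairing. With the replicate block 2574 and 713 genes were called. The 15 named list genes kept their direction and an adjusted p under 0.05 under all 14 alternatives each, which for them were chosen after seeing the data, but Hand2 lay within the fold change limit at -0.84 (quantile) and -0.93 (median-ratio), and Gucy1a1 was at that limit, to 2 decimals, without the second Cal-headed library. The cause of these dependences was not tested. Each member rested on 128 to 4786 reads per library.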
